A study of Mus musculus with 6 samples.

Results

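T-box factors and the basic helix-loop-helix (bHLH) factors Tcf21, Twist1 and Twist2 were followed in whole lung buds of mouse embryos at E11.5, with and without floxed alleles of the histone deacetylase genes Hdac1 and Hdac2. The set was a fixed list of 10 transcription factor genes (Tbx1, Tbx2, Tbx3, Tbx4, Tbx5, Tbx18, Tbx20, Tcf21, Twist1 and Twist2) out of 19938 genes measured, chosen by name as factors of lung mesenchyme. Earlier results of these data were known when it was chosen. Each of the 10 had 1 probe set of its own on the Affymetrix MoGene 1.1 ST array, so no member was lost to a filter. The 3 control samples had the genotype Shhcre, and the 3 double-knockout samples (DKO) had Shhcre with Hdac1 fl/fl and Hdac2 fl/fl. All 6 shared the Shhcre allele, the age E11.5 and the strain labels C57BL/6, 129X1 and 129S1. Shhcre drives Cre recombinase from the Sonic hedgehog locus, which in the lung bud is active in the epithelium and not in the mesenchyme. The labels call the samples biological replicates but do not tell single embryos from pools. The p-values rest on the spread among these 6 samples, and whether it is the spread among single embryos is not known.

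T-box factors bind DNA through the shared T-box domain and act as activators or repressors. In the lung bud Tbx2, Tbx3, Tbx4 and Tbx5 are known from the mesenchyme, where Tbx4 and Tbx5 help to maintain Fgf10 and Tbx2 and Tbx3 are repressors that keep cells proliferating, whereas Tbx1 is known from the pharynx and from the bud epithelium. Tcf21 and the Twist factors are bHLH proteins that bind E-boxes as dimers with E-proteins, and Id proteins block such dimers.

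The buds carried lung markers. On the log2 scale the lung determinant Nkx2-1 lay between 10.20 and 10.60 on the 6 arrays and the lung mesenchyme factor Foxf1 between 12.57 and 12.77, with a median over all genes of 8.15, although probes differ in brightness. Hdac1 fell by 0.28 on the log2 scale (SE 0.05, adjusted p = 0.0193) and Hdac2 did not pass (-0.04, SE 0.06, adjusted p = 0.845). The Hdac1 call was kept without DKO 2 and lost without any other array (adjusted p = 0.0517 to 0.112). The position of these probes relative to the floxed exons is not known here, so they do not check the deletion. The array medians lay between 7.87 and 7.89. The DKO arrays scattered more around their group mean (SD over all genes 0.0705 to 0.105) than the controls (0.0596 to 0.0645). Over all genes, limma called 481 of 19938, which is 2.41%, with 1.03% higher and 1.38% lower in DKO, at an adjusted p under 0.05.

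Of the 10 factors, Tbx1 and Twist2 fell in the DKO buds and 0 rose by the same test. Tbx1 fell 1.75-fold and Twist2 1.21-fold, and the other 8 did not pass. The calls amount to 2 of 10 members, against 2.41% of all genes. Because the members were chosen with earlier results of these data known, this contrast is only a description. Both counts moved with the arrays and the fit used. Without any 1 array other than DKO 2, and with ordinary least squares, Tbx1 alone fell. The 481 calls over all genes became 197 to 811 when 1 array was left out and 16 to 2003 under the other alternatives. The unadjusted p was under 0.05 for 3 members (Tbx1, Twist2 and Tbx20), against 12.8% of all genes. In these 3 the DKO values lay wholly to one side of the controls, which held for 18.8% of all genes. Changes were negative in 6 members and positive in 4, with a median log2 change of -0.06 against 0.00 over all genes.

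The promoters of some members are shown, so that the factor that fell most (Tbx1), the paralogs Twist2 and Twist1, and the little-changed Tbx4 can be compared. Tbx20, which had the largest positive change (0.35, not called), is described but not printed. RefSeq sequence of GRCm38.p6 was available here for 8 start sites of 7 members (Tbx1 with 2, and Tbx4, Tbx18, Tbx20, Tcf21, Twist1 and Twist2). Tbx2, Tbx3 and Tbx5 are named only. Each window holds 300 bases, 250 before and 50 after the start, read on the strand of the gene. Capitals mark matches on either strand to the T-box core GGTGT, the E-box CANNTG, the GC box GGGCGG and the TATA box TATAAA. The longer T-box element AGGTGTGA, which contains the core, was searched too.
Tbx1, chr16:18590622-18590921, minus strand: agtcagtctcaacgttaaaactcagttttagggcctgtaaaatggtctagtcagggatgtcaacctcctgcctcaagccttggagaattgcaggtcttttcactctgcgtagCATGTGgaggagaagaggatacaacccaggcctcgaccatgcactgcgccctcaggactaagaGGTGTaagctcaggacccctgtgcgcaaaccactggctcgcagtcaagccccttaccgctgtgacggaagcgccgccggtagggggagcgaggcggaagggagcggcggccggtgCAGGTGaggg
Tbx1, chr16:18588850-18589149, minus strand: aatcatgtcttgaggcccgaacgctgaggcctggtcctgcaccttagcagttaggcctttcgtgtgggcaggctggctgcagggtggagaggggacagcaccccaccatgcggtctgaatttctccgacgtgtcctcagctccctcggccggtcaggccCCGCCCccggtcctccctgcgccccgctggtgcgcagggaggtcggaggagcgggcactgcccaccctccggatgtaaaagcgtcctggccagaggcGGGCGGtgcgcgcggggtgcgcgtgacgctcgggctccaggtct
Twist2, chr1:91801211-91801510, plus strand: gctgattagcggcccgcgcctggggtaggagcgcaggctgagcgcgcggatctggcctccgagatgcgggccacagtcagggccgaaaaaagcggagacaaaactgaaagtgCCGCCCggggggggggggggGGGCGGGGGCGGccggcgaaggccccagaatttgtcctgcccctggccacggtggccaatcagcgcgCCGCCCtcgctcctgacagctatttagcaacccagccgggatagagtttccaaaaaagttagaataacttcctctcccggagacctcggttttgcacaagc
Twist1, chr12:33957421-33957720, plus strand: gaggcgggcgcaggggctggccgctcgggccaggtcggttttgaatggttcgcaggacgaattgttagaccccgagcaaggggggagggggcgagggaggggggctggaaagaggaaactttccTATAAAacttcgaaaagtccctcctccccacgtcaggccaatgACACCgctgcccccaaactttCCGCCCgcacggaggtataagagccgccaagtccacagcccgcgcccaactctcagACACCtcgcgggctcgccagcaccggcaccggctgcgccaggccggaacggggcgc
Tbx4, chr11:85896515-85896814, plus strand: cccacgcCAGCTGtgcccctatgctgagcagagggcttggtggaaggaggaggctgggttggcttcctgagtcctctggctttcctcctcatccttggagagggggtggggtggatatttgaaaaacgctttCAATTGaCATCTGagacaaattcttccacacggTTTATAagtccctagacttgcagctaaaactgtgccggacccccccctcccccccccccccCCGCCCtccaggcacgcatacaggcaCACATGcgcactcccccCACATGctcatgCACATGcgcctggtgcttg

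The Twist2 window held 4 GC boxes and no match to the E-box or the T-box core, with 25 CpG and 64.7% G and C. The Twist1 window held 1 GC box, 1 TATA box and 2 T-box cores, with 27 CpG and 66% G and C. Of the Tbx1 windows, the one at 18590622 held 1 T-box core and 2 E-boxes with 16 CpG, and the one at 18588850 held 2 GC boxes with 26 CpG. The Tbx4 window differed from these in having 6 E-boxes and 8 CpG, with 1 GC box and 1 TATA box. Among the members not printed, the Tbx20 window held 2 GC boxes, the Tbx18 window 1 T-box core and 1 E-box, and the Tcf21 window no match to any of the motifs. Over all 32851 promoter windows of the same table, 72.3% held an E-box, 41.6% a T-box core, 35.7% a GC box, 13.6% a TATA box and 1.28% the longer T-box element, which no member window held. The median window had 7 CpG and 52.7% G and C. An E-box may overlap a T-box core where CAGGTG is followed by T. These matches describe letters in the windows and say nothing on binding.

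Tbx1 showed the largest change of the set. Its log2 level was 9.02, 9.00 and 9.00 in controls 1 to 3, and 8.18, 8.16 and 8.25 in DKO 1 to 3. All DKO values lay below all control values, and the gap was many times the spread within a group (SD 0.01 in control and 0.05 in DKO, n = 3 each). Tbx1 changed by -0.81 on the log2 scale (SE 0.05, 95% interval -0.92 to -0.70, adjusted p = 0.000139), and this was larger in size than that of 99.8% of all genes. The call held under all 17 alternatives, 6 of which each left out 1 array, with changes from -0.84 to -0.77.

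Markers of the epithelium moved with Tbx1. Of 15 epithelial markers, 10 fell and 0 rose by limma, against 1.38% and 1.03% of all genes. The count that fell became 8 without control 2, 12 with array weights and 1 with ordinary least squares. All 15 had an unadjusted p under 0.05 and values that did not overlap, against 12.8% and 18.8% of all genes. Their mean log2 level lay between 9.63 and 9.75 in control and between 8.98 and 9.09 in DKO, with a median change of -0.56. Tbx1 fell more than 11 of the 15. The larger changes were those of the surfactant gene Sftpc (-2.37), the airway factor Sox2 (-1.17), the trafficking gene Rab25 (-0.89) and the keratin gene Krt18 (-0.86). The part of the epithelial fall in the Tbx1 result was not tested, and in these bulk samples fewer cells of a type and less RNA per cell cannot be told apart. Among 109 genes that varied over at least as wide a range, the genes most like Tbx1 over the 6 arrays were Krt18 (Pearson r = 0.998), Tmem54 (r = 0.997) and the myosin gene Myo5c (r = 0.996). Their log2 changes were -0.86, -0.95 and -1.35. Such r values over 2 groups that stand apart mostly reflect the group difference, and the arrays share their normalization.

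The repressors Tbx2 and Tbx3 did not pass. Tbx2 stood at 10.66, 10.74 and 10.63 in controls 1 to 3 and at 10.74, 10.81 and 10.72 in DKO 1 to 3. Tbx3 stood at 10.75, 10.71 and 10.74 in controls 1 to 3 and at 10.68, 10.83 and 10.80 in DKO 1 to 3. For both genes the groups overlapped, and for Tbx3 the lowest value of all was DKO 1. Tbx2 had a log2 value of 0.08 for DKO minus control (SE 0.05, interval -0.04 to 0.20, adjusted p = 0.633). Tbx3 had 0.03 (SE 0.06, interval -0.09 to 0.16, adjusted p = 0.884). The intervals reach at most 1.15-fold for Tbx2 and 1.12-fold for Tbx3.

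Tbx4 and Tbx5, the activators linked to Fgf10, had the narrowest intervals of the set. Tbx4 stood at 11.42, 11.42 and 11.37 in controls 1 to 3 and at 11.40, 11.41 and 11.36 in DKO 1 to 3, so the groups overlapped. DKO minus control was -0.01 (SE 0.05, interval -0.12 to 0.10, adjusted p = 0.952), and the interval reaches at most 1.09-fold. Tbx5 stood at 11.93, 11.87 and 11.95 in controls 1 to 3 and at 11.94, 11.95 and 11.98 in DKO 1 to 3, again overlapping. DKO minus control was 0.04 (SE 0.05, interval -0.07 to 0.15, adjusted p = 0.847), at most 1.11-fold.

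Tbx18 and Tbx20, known from the epicardium and the heart, did not pass. Tbx18 stood at 8.98, 8.90 and 8.79 in controls 1 to 3 and at 8.77, 8.57 and 9.04 in DKO 1 to 3. DKO 2 was the lowest and DKO 3 the highest of all 6 arrays, so the DKO values enclosed the controls. DKO minus control was -0.10 for Tbx18 (SE 0.11, interval -0.34 to 0.15, adjusted p = 0.809), and it was above 0 under 2 of 17 alternatives, array weights (0.09) and leaving out DKO 2 (0.01). Tbx20 stood at 8.14, 7.89 and 8.03 in controls 1 to 3 and at 8.50, 8.16 and 8.46 in DKO 1 to 3. All DKO values were above the controls, DKO 2 by a narrow margin over control 1. Tbx20 had a value of 0.35 (SE 0.10, interval 0.13 to 0.58, 1.28-fold, adjusted p = 0.125) and did not pass, whereas without DKO 2 the change was 0.46 and passed (adjusted p = 0.00782).

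Most cardiac muscle markers, like Tbx20, had positive values. Of 12 cardiac genes 11 had positive changes, and 1, the atrial myosin light chain gene Myl7, rose by limma (0.80, SE 0.08, adjusted p = 0.00163). Myl7 stood at 8.96, 8.93 and 8.79 in controls 1 to 3 and at 9.71, 9.55 and 9.84 in DKO 1 to 3, with DKO 2 again the lowest of its group. The mean log2 level of the list lay between 8.19 and 8.25 in control and between 8.39 and 8.49 in DKO. Of the 12, 6 had an unadjusted p under 0.05 and 6 had groups that did not overlap, against 12.8% and 18.8% of all genes, with a median change of 0.16. The count that rose became 3 without DKO 2, 7 with array weights and 0 with ordinary least squares. The part of cardiac tissue in the Tbx20 values was not tested.

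**Figure D1:**
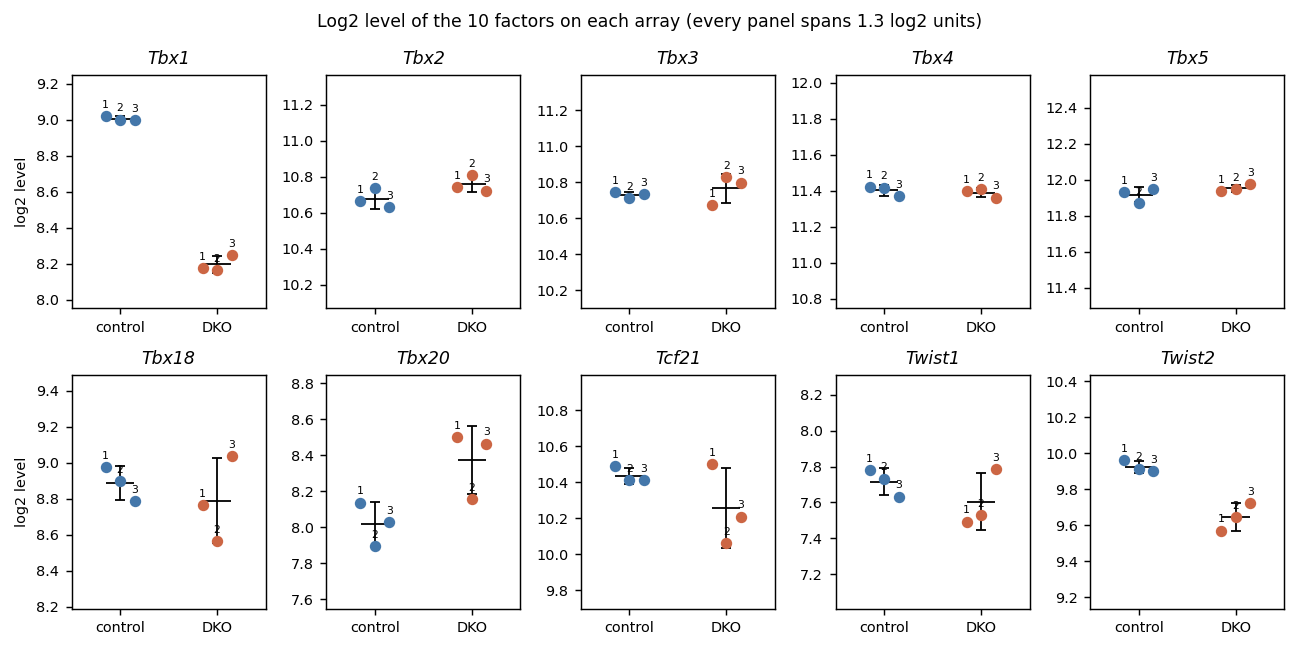
Log2 level (vertical axes) of each of the 10 factors in control (blue) and DKO (orange) lung buds, with each point 1 array numbered by its replicate and black bars the mean ± SD of 3 arrays. Every panel spans the same width, and the groups are apart in Tbx1, Tbx20 and Twist2, while the DKO values of Tbx18 and Tcf21 are widely scattered.

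Of the bHLH factors, Twist2 fell and Twist1 and Tcf21 did not pass. Twist2 stood at 9.96, 9.92 and 9.90 in controls 1 to 3 and at 9.57, 9.65 and 9.73 in DKO 1 to 3. The groups did not overlap, with DKO 3 nearest to the controls. Twist2 changed by -0.28 on the log2 scale (SE 0.06, interval -0.41 to -0.15, adjusted p = 0.0395). It was negative under all 17 alternatives, between -0.32 and -0.22, but the call was kept by 1 of the 6 fits that left out an array. The adjusted p was 0.186 without control 1, 0.149 without control 2, 0.132 without control 3, 0.0969 without DKO 1, 0.0367 without DKO 2 and 0.0505 without DKO 3.

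Twist1, a regulator of mesenchymal cells like its paralog, stood at 7.78, 7.73 and 7.63 in controls 1 to 3 and at 7.49, 7.53 and 7.79 in DKO 1 to 3. DKO 1 and DKO 2 lay below the controls, and DKO 3 was level with control 1, the highest control. Its value was -0.11 (SE 0.08, interval -0.30 to 0.07, adjusted p = 0.678), and array weights gave 0.03. Tcf21, needed for normal lung mesenchyme and for branching, stood at 10.49, 10.41 and 10.41 in controls 1 to 3 and at 10.50, 10.06 and 10.21 in DKO 1 to 3. DKO 1 was the highest of all arrays and DKO 2 the lowest, an SD of 0.22 in DKO against 0.04 in control. DKO minus control was -0.18 (SE 0.10, interval -0.41 to 0.04, adjusted p = 0.529). The changes lay between -0.30 without DKO 1 and -0.08 without DKO 2.

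**Figure D2:**
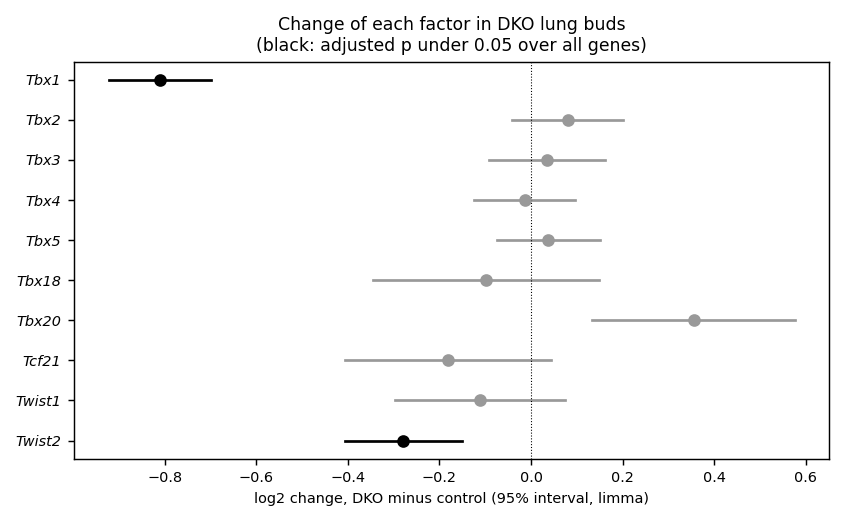
Log2 change of each factor, DKO minus control (horizontal axis), with dots for the limma estimate and lines for its 95% interval from 3 arrays per group. Black marks an adjusted p under 0.05 over all 19938 genes, which Tbx1 and Twist2 reached, and the intervals of Tbx2, Tbx3, Tbx4 and Tbx5 lie close around 0.

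Paralogs were compared directly in 3 pairs by an exact permutation test on the per-array difference of their log2 levels, two-sided, whose smallest possible p with 3 against 3 arrays is 0.1. The log2 change of Twist1 was 0.17 above that of Twist2 (90% exact interval 0.07 to 0.33), with the 3 DKO differences all above the 3 control differences. The exact permutation p was 0.1 and 0.3 after Benjamini-Hochberg adjustment over the 3 pairs, so the design could not place the 2 genes apart at 0.05. Tbx2 and Tbx3 differed by 0.05 (interval -0.10 to 0.17, exact permutation p = 0.5), and Tbx4 and Tbx5 by -0.05 (interval -0.16 to 0.04, exact permutation p = 0.4). Both had an adjusted p of 0.5.

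Neighbouring genes were examined because Tbx2 lies next to Tbx4 and Tbx3 next to Tbx5 in the order of measured protein-coding genes, an arrangement kept in many vertebrates. None of these 4 linked factors passed. Of the 32 other genes within 2 measured genes of a member, limma called 0, and 3 had an unadjusted p under 0.05 (Gnb1l, Eya4 and Cep162, the last at 0.19 beside Tbx18). Over all genes, 2.41% were called and 12.8% had an unadjusted p under 0.05. Beside Tbx1, Gnb1l stood at -0.26 (adjusted p = 0.118), the claudin gene Cldn5 at 0.14, Cdc45 at -0.06 and Txnrd2 at -0.01. Histone deacetylase genes lie beside both Twist genes, Hdac9 beside Twist1 (0.07, adjusted p = 0.776) and Hdac4 beside Twist2 (0.02, adjusted p = 0.930). Eya4, beside Tcf21, stood at -0.35 (SE 0.11, adjusted p = 0.189).

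Over the 6 arrays the genes most like Twist2, among 1882 that varied over at least as wide a range, were the epithelial ligand Shh (Pearson r = 0.990), the adaptor gene Grb7 (r = 0.990) and the receptor gene Erbb3 (r = 0.988). Shh fell by 0.59, Grb7 by 0.88 and Erbb3 by 0.88 on the log2 scale. Only genes with at least the range of Twist2 were compared, so the size of these changes beside Twist2 is no result. Within the set, Tbx1 and Twist2 were the most alike pair (r = 0.960), followed by Tbx18 and Twist1 (r = 0.875), which were both highest on DKO 3 among the DKO arrays, and the most opposed were Tbx3 and Tcf21 (r = -0.906). These r values over 6 arrays are descriptions that the group difference and the shared normalization both enter.

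Other mesenchymal genes changed in both directions. Of the 18 lung mesenchyme genes other than members, 3 rose, 1 fell and the median log2 change was -0.01. Over all genes, 1.03% rose and 1.38% fell. With the members on it, the list holds 23 genes. Of these 23, 9 had an unadjusted p under 0.05, against 12.8% of all genes. Groups that did not overlap were seen in 10, against 18.8% of all genes. Fgf10, the growth factor of budding (1.05, SE 0.12), the homeobox genes Meox2 (0.63, SE 0.05) and Hoxb5 (0.36, SE 0.07) rose, and the forkhead gene Foxf2 fell (-0.51, SE 0.07). Hoxb5 kept its call without DKO 2 or DKO 3 and lost it without any other array (adjusted p = 0.0516 to 0.127), while the other 3 kept theirs whichever array was left out. Foxf1, the closest relative of Foxf2, stood at -0.06 (adjusted p = 0.771). The mean log2 level of these 18 genes was 10.38, 10.39 and 10.33 in controls 1 to 3 and 10.51, 10.43 and 10.37 in DKO 1 to 3, and the groups overlapped. Airway smooth muscle, a derivative of this mesenchyme, had 6 of 9 genes that fell (Acta2, Actg2, Cnn1, Myh11, Myocd and Tagln, from -0.70 to -0.43) and 1 that rose, Des (0.32). Lmod1 (-0.16) and Mylk (0.05) did not pass. Of the 9, 8 had an unadjusted p under 0.05 and 8 had groups that did not overlap. The same shares over all genes were 12.8% and 18.8%. The mean level of that list was 9.50 to 9.60 in control and 9.13 to 9.33 in DKO. Leaving out control 2 or control 3 left 0 calls in this list, leaving out control 1 left 2 falls and leaving out DKO 3 left 3. Des kept its call only when DKO 2 was the array left out.

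**Figure D3:**
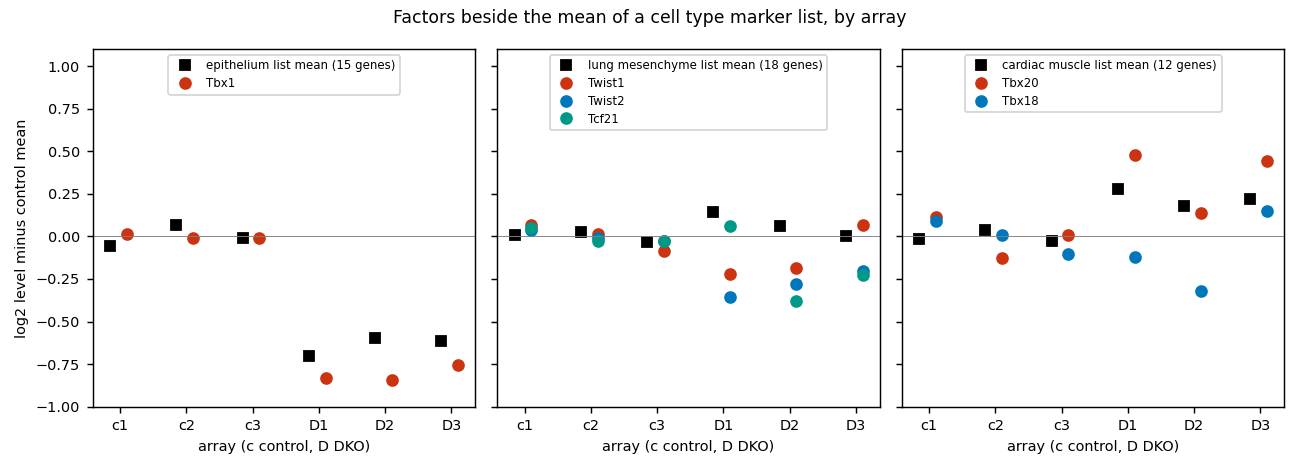
Log2 level minus the control mean (vertical axis) on each array, for factors (circles) and for the mean of a cell type marker list without the 10 factors (black squares). Tbx1 and the 15 epithelial markers are low on every DKO array, the mesenchyme list overlaps between the groups and is highest on DKO 1 while Twist2 is low on every DKO array, and Tbx20 and the cardiac list are above 0 on the DKO arrays.

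Markers of other tissues that express these factors were set beside them. For comparison, limma called 2.41% of all genes, 12.8% had an unadjusted p under 0.05 and 18.8% had groups that did not overlap. Of 10 mesothelial genes, a layer that together with the epicardium expresses Tbx18 and Tcf21, 3 rose (Calb2 1.28, Upk1b 0.47, Gpm6a 0.42) and 0 fell, with a mean level of 8.56 to 8.59 in control and 8.82 to 8.91 in DKO. The 3 calls became 1 without control 1, 2 or 3, which was Upk1b. Of the 10, 8 had positive changes, 5 had an unadjusted p under 0.05 and 6 had groups that did not overlap, with a median change of 0.17. Limma called 0 of 12 endothelial genes, 2 of which had an unadjusted p under 0.05 (Tek 0.20 and Cdh5 0.20). Of these 12, 11 had positive changes, as in the cardiac list, with a median of 0.13, and 1 had groups that did not overlap. Their mean level was 9.53 to 9.58 in control and 9.59 to 9.74 in DKO, so the list means were apart by a narrow margin. With array weights 1 endothelial gene rose. Limma called 0 of 7 skeletal muscle and somite genes, with 1 unadjusted p under 0.05, and the largest values were Myf5 (-0.19) and Myod1 (0.12). It also called 0 of 4 neural crest genes measured, with 2 unadjusted p under 0.05, and the largest values were Ret (-0.28) and Sox10 (-0.20).

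The remaining T-box genes gave no call. Of 8 others measured, limma called 0, and 1 had an unadjusted p under 0.05, with a median change of -0.03. The shares over all genes were 2.41% and 12.8%. The 1 gene was Tbx19, a pituitary factor, which stood at 7.55, 6.96 and 7.12 in controls 1 to 3 and at 6.62, 6.80 and 6.61 in DKO 1 to 3. The groups did not overlap and the log2 change was -0.53 (SE 0.13, adjusted p = 0.0898). Tbx21, a T cell factor, had the next largest value (0.14, adjusted p = 0.558). With an intensity trend in the fit, 1 of these 8 genes fell, and 1 fell with array weights.

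The dimer partners of the bHLH factors gave no call either. Of the 3 E-proteins (Tcf3, Tcf4 and Tcf12) and 4 Id genes, limma called 0, and 2 had an unadjusted p under 0.05. The shares over all genes were 2.41% and 12.8%. The 2 genes were Id4 (-0.21, SE 0.06, adjusted p = 0.143) and Id3 (-0.17, SE 0.06, adjusted p = 0.255), both with groups that did not overlap. The E-protein genes stood at -0.09 (Tcf3), -0.02 (Tcf12) and 0.00 (Tcf4). With array weights, 2 of the E-protein and Id genes fell. Of 10 other bHLH genes related to Twist, Scx, the tendon factor scleraxis, fell (-0.35, SE 0.06, adjusted p = 0.0262) and 0 rose. Scx stood at 8.85, 8.89 and 8.69 in controls 1 to 3 and at 8.41, 8.51 and 8.45 in DKO 1 to 3, with no overlap. Its call was lost without control 1, control 2, DKO 1 or DKO 3 (adjusted p = 0.0752 to 0.136).

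Genes known downstream of lung T-box factors moved both ways. Of 11 measured, Fgf10 rose and Frzb, a secreted Wnt antagonist that Tbx2 and Tbx3 repress, fell (-0.30, SE 0.06, adjusted p = 0.0371), and the other 9 did not pass, with a median change of -0.14 over the list. Of the 11, 6 had an unadjusted p under 0.05 and 5 had groups that did not overlap, against 12.8% and 18.8% of all genes. Fgf10 stood at 9.03, 9.14 and 9.14 in controls 1 to 3 and at 10.44, 10.11 and 9.91 in DKO 1 to 3. Frzb stood at 7.11, 7.16 and 7.07 in controls 1 to 3 and at 6.86, 6.70 and 6.86 in DKO 1 to 3. In both genes the groups were apart while Tbx2, Tbx3, Tbx4 and Tbx5 overlapped. Any link of the Fgf10 and Frzb changes to these factors was not tested. The Frzb call was kept when DKO 2 was left out and lost when any other array was (adjusted p = 0.0521 to 0.167). The mesenchymal ligand Wnt2 (-0.27, adjusted p = 0.104), Wnt2b (-0.18, adjusted p = 0.265) and the cell cycle inhibitors Cdkn1b (-0.07, adjusted p = 0.729) and Cdkn2a (-0.14, adjusted p = 0.531) did not pass. Nor did Cdh1 (-0.22, adjusted p = 0.168) and Ccn2 (-0.19, adjusted p = 0.290). Shisa3 (0.08, adjusted p = 0.625) and Spry2 (0.01, adjusted p = 0.980) had positive values and did not pass. Upstream, of 14 hedgehog and BMP genes Shh (-0.59, SE 0.08) and the hedgehog antagonist Hhip (-0.58, SE 0.11) fell and 0 rose, with calls lost without control 2 for Shh (adjusted p = 0.0532) and without control 2, control 3 or DKO 1 for Hhip (0.0609 to 0.120). Changes were positive in 5 of the 14 and negative in 9. The hedgehog genes Gli1 (0.07, adjusted p = 0.830), Gli2 (-0.001, 0.997), Smo (-0.03, 0.896) and Ptch1 (-0.15, 0.490) did not pass by limma. Gli3 did not pass either (0.16, adjusted p = 0.155), although its DKO values lay above the controls. The BMP ligand Bmp4, which is also on the downstream list, stood at 0.09 (adjusted p = 0.733).

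**Figure D4:**
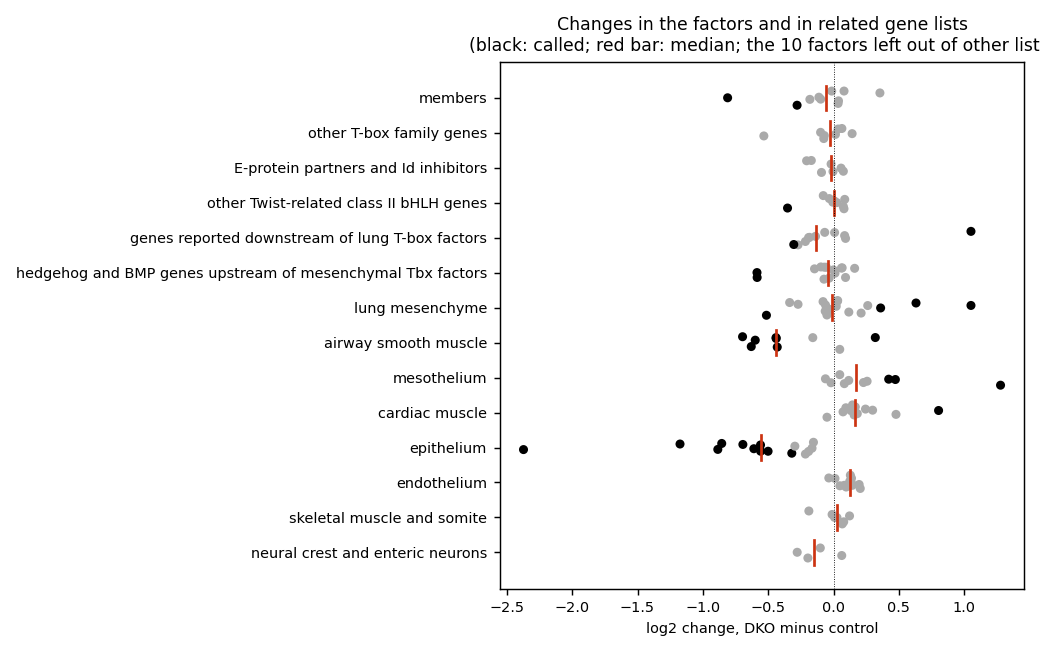
Log2 change, DKO minus control (horizontal axis), of the 10 factors (members) and of the genes of each related list, with 1 dot per gene, black for an adjusted p under 0.05, and a red bar at the median of the list. The factors center near 0 with Tbx1 apart, the epithelium list lies wholly below 0, and the other T-box genes and the E-protein and Id genes have no black dot.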

How the data were processed

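Total RNA of 6 lung bud samples was labelled with biotin and hybridised to 1 array each, per the labels. The deposited table held log2 values for 35556 probe sets, made with oligo, RMA and limma per the submitters' processing notes, with settings and genome build not given in the sources used here. Log base 2 was inferred from RMA and from the range of the values. RMA makes the array distributions alike, so a change common to all genes cannot be seen. Of the probe sets, 21789 had 1 gene symbol, 1621 several and 12146 none. The brightest probe set per gene was kept, which left 19938 genes. Groups were taken from the sample titles.

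The comparison was fitted in R 4.3.3 with limma 3.58.1 (lmFit, eBayes, two-sided, group as the only term), adjusted by Benjamini-Hochberg over the 19938 genes, with 0.05 as the threshold. Intervals are 95% unless said otherwise. The 90% intervals of the paralog pairs hold the shifts that the exact permutation test does not reject. On simulated data of 19938 genes, this test recovered 46% of genes changed 1.25-fold, 84.7% changed 1.5-fold and 98.7% changed 2-fold, with 3.71% false calls. Same-numbered control and DKO arrays did not deviate together (r of deviations -0.06, 0.05 and 0.16), so the numbers were not taken as pairs.

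The members and the gene lists (143 of 150 listed genes measured, Cdkn1a not among them) were chosen with earlier results of these data known. Named genes are Hdac1, Hdac2, the 10 members, list genes past the threshold (or, with none, the 2 that changed most), and the 3 genes most like each called member. Neighbouring genes, Nkx2-1, Foxf1, the E-proteins and further genes of the downstream list and of the hedgehog and BMP list were added after their values were seen. Promoters came from RefSeq, build GRCm38.p6. The number of arrays limits the precision.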

Additional observations from a re-analysis of the deposited data

How the results depend on the processing

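The 10 factors were refitted under 17 alternatives, and Twist1 under 16 because it is among the dimmest 50% of probes. Tbx1 stayed lower with an adjusted p under 0.05 in all 17, at most 0.0310 with ordinary least squares. Twist2 kept its direction in 17 and its call in 10. The count of members that rose, 0 as reported, was 1 (Tbx20) with the replicate block (adjusted p = 0.0333) and with array weights (0.00317), and 0 to 1 when 1 array was left out. The count that fell, 2 as reported, was 1 with the replicate block (Twist2 adjusted p = 0.0869) and with ordinary least squares (0.199), and 1 to 2 when 1 array was left out. The labels state no block behind the replicate numbers, and whether same-numbered samples share one is not known. Over all genes the count of 481 became 725 with an intensity trend, 2003 with array weights, 16 with ordinary least squares and 197 to 811 when 1 array was left out. The cause was not tested. No paralog difference changed sign under further quantile normalization, median centring, the mean of all probes of a gene or the leaving out of 1 array, the settings in which the differences were computed. Of 442 counts in the other lists under alternatives, 59 moved by over 1.5 times.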
